A study of Mus musculus with 4 samples.

Results

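The insulin-like growth factor (IGF) system was followed through 9 genes in Osr1+ limb cells: the ligand gene *Igf1*, the receptor genes *Igf1r* and *Igf2r*, and the binding protein genes *Igfbp2* to *Igfbp7*. They were taken by name, as members of the family, and all 9 were found among the 23284 gene symbols of the count files. The RNA came from limbs of C57BL/6J mouse embryos at E13.5 (embryonic day), as 2 *Osr1* GCE/+ and 2 *Osr1* GCE/GCE samples, from 2 embryos of each genotype according to the methods of the study. The GCE allele is an eGFP-IRES-CreERt2 cassette knocked into *Osr1*, so every sample carried it and GCE/+ cells, with 1 intact allele, served as the controls. Live cells were sorted by GFP after collagenase digestion. The comparison of GCE/GCE with GCE/+ cells asks what loss of *Osr1* changes in these connective tissue progenitors.

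Igf1 and Igf2 are secreted ligands that signal through the receptor tyrosine kinase Igf1r. Igf2r, the cation-independent mannose 6-phosphate receptor, takes up Igf2 for breakdown in lysosomes and has no kinase of its own. The classical Igfbp proteins hold ligand outside the cell, where they can both limit and prolong its action, and IGF signalling promotes growth of embryonic muscle and skeleton.

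The binding proteins share an amino-terminal domain rich in cysteines. A short coding stretch of this domain is shown because it marks what the family members have in common and where *Igfbp6* and *Igfbp7* depart from it. Each stretch is 24 bases long, read 5′ to 3′ on the coding strand from the GRCm38 genome with GENCODE coding exons, and the capitals mark cysteine codons.

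Igfbp2, chr1:72824778-72824801, plus strand: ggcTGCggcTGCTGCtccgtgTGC
Igfbp3, chr11:7213566-7213589, minus strand: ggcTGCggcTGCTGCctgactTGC
Igfbp4, chr11:99041650-99041673, plus strand: ggcTGCggtTGTTGCgccactTGC
Igfbp5, chr1:72873966-72873989, minus strand: ggcTGTggcTGCTGCatgactTGC
Igfbp7, chr5:77407826-77407849, minus strand: gcgTGCgggTGCTGCccggtgTGT

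In *Igfbp2* to *Igfbp5* the stretch opened with a glycine codon, and in *Igfbp7*, whose product is a more distant relative with low affinity for IGFs, it did not. The coding sequence of *Igfbp6*, whose product prefers Igf2 as its ligand, held no match to the searched pattern. Besides the spaced cysteine codons, the pattern asked for a glycine or alanine codon at the start and a glycine codon after the opening cysteine. The spacing of cysteine codons alone was not searched. The longest run of identical coding bases between any of these genes was 33 bases, between *Igfbp2* and *Igfbp3*, which is shorter than the 50-base reads. Of the 50-base words in the exons of each of the 9 genes, none was found in the transcripts of another gene for 7 of them. For *Igfbp4* 1.72% and for *Igfbp7* 2.99% of words were shared. The *Igfbp7* words matched *Polr2b* on the opposite strand, with which it shares 85 exon bases. Whether counting used strand was not stated, so a small part of the *Igfbp7* count may belong to *Polr2b*.

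*Igfbp2* and *Igfbp5* are neighbours on chromosome 1, tail to tail and 5.457 kb apart. *Igfbp3* on chromosome 11 lies 3.539 kb from *Igfbp1*, a gene that was close to silent in these cells, with 0.163 to 0.230 CPM. In this pair of neighbours the levels were far apart, and in the other pair both genes were expressed at a level of at least 93.5 CPM in each sample.

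Total counts were 52121596 to 61402140 per sample, so that 3 counts, taken as the floor, correspond to 0.0489 to 0.0576 CPM (counting error only). Levels are given as CPM, counts scaled by TMM-adjusted library size. *Osr1* itself had 81.9 and 79.1 CPM in GCE/+ replicates 1 and 2 and 11.9 and 13.9 CPM in GCE/GCE replicates 1 and 2, a log2 fold change of -2.64 ± 0.11 (SE). *Xist*, which is transcribed from the inactive X chromosome of female cells, was high in GCE/GCE replicate 1 (1142 CPM) and did not exceed 2.63 CPM elsewhere. In the quasi-likelihood test of edgeR (Benjamini-Hochberg adjusted), 285 of 15645 tested genes (1.82%) passed an adjusted p of 0.1, with 140 higher (0.895%) and 145 lower (0.927%) in GCE/GCE cells. The labels do not say that replicate numbers stand for a litter or a day, and with 2 samples against 2 an exact permutation test could not give a p below 0.333. In bulk samples, fewer cells of a type and less RNA per cell cannot be told apart.

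None of the 9 genes passed the threshold in this test, whose lowest adjusted p among them was 0.228 (edgeR, Benjamini-Hochberg). At an unadjusted p under 0.05 there were 2, *Igfbp5* and *Igfbp6*, against 10.5% of all tested genes. DESeq2 called 1 of the 9, *Igfbp5*, which was higher; it called 3.35% of all genes, 1.71% as higher and 1.64% as lower. The samples of both genotypes did not overlap for *Igfbp5* (higher in GCE/GCE) and *Igfbp6* (lower in GCE/GCE) and overlapped for the other 7, and among all tested genes 38.4% did not overlap. The median log2 fold change of the 9 genes was -0.012, beside 0.0033 over all tested genes, and the median of its size was 0.11 beside 0.10. In both measures the 9 genes lay close to the background.

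**Figure D1:**
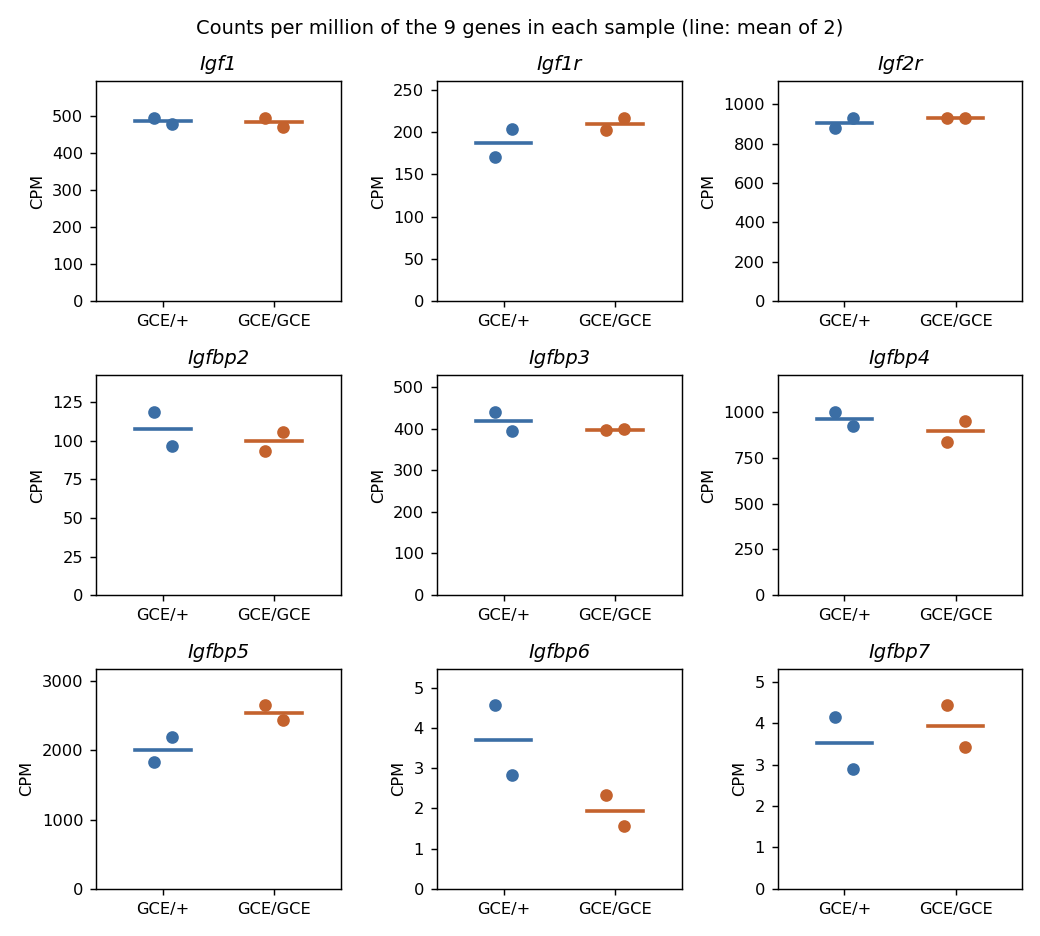
CPM (TMM-scaled, vertical axes starting at 0) of each of the 9 genes in the 2 GCE/+ samples (blue) and the 2 GCE/GCE samples (orange). Points are samples, replicate 1 on the left, and lines are the mean of 2. Only *Igfbp5* and *Igfbp6* show groups that do not overlap.

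The ligand gene *Igf1* had 495 and 478 CPM in GCE/+ replicates 1 and 2 and 494 and 471 CPM in GCE/GCE replicates 1 and 2. The 4 samples were nearly level, and the log2 fold change was -0.012 ± 0.089 (SE), with a 95% interval of -0.22 to 0.19. On the linear scale this interval runs from 0.861 to 1.14 times the GCE/+ level. Macrophages are a known source of Igf1 in other settings. Of 13 tested macrophage markers, 10 passed as lower (edgeR, adjusted p under 0.1) and no marker was at 0. Their summed level was 367 and 371 CPM in GCE/+ against 231 and 161 CPM in GCE/GCE cells, and their part in the *Igf1* level was not tested.

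*Igf1r*, the signalling receptor, had 171 and 203 CPM in GCE/+ against 203 and 217 CPM in GCE/GCE cells. GCE/+ replicate 2 and GCE/GCE replicate 1 were at nearly the same level, so the groups overlapped, and the log2 fold change of 0.17 ± 0.10 (SE) had an adjusted p of 0.691 (edgeR, Benjamini-Hochberg). This value was 0.041 without GCE/+ replicate 1, 0.30 without GCE/+ replicate 2 and 0.035 with an offset for transcript length. *Igf2r*, the clearance receptor, was more abundant, with 878 and 931 CPM in GCE/+ against 931 and 930 CPM in GCE/GCE cells. The log2 fold change of *Igf2r* was 0.040, with a 95% interval of -0.19 to 0.27. *Airn*, a noncoding RNA that runs opposite to *Igf2r*, shares no exon base with it.

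Among the binding protein genes, *Igfbp5*, which encodes a matrix-associated protein expressed in developing muscle and skeleton, was the most abundant. It had 1830 and 2189 CPM in GCE/+ replicates 1 and 2 and 2648 and 2435 CPM in GCE/GCE replicates 1 and 2. Both GCE/GCE samples lay above both GCE/+ samples, as they did for 19.2% of all tested genes. The log2 fold change was 0.34 ± 0.15 (SE), which is 1.26-fold with a 95% interval of 1.00 to 1.59. The adjusted p was 0.465 with edgeR and 0.0904 with DESeq2 (Benjamini-Hochberg), so the call depended on the tool. Between the samples of GCE/+ alone, replicate 2 was higher than replicate 1 by 0.26 on the log2 scale, a gap of a size near that of the genotype difference.

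Cartilage markers were higher in the GCE/GCE samples as well. Their summed level was 1027 and 1529 CPM in GCE/+ against 2173 and 2349 CPM in GCE/GCE cells, with replicate 2 the higher in both genotypes. *Igfbp5* had the same order in GCE/+ and the opposite order in GCE/GCE cells, where replicate 1 was higher. Of 15 tested cartilage markers 7 passed as higher and none as lower, and for all 15 the genotypes did not overlap, with GCE/GCE the higher. *Col2a1*, the main collagen of cartilage, had 359 and 571 CPM in GCE/+ against 790 and 879 CPM in GCE/GCE cells. Of 11 tendon markers 4 passed as higher and 1 as lower. The part of cartilage or tendon cells in the *Igfbp5* level was not tested.

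*Igfbp6* was the member with the lowest p and one of the least abundant. Its counts were 278 and 148 in GCE/+ replicates 1 and 2 and 135 and 96 in GCE/GCE replicates 1 and 2, or 4.57 and 2.83 CPM against 2.33 and 1.57 CPM. The GCE/GCE samples both fell under the GCE/+ samples, as for 19.1% of all tested genes, and the GCE/+ samples were themselves far apart. The log2 fold change was -0.93 ± 0.29 (SE), or 0.523 of the GCE/+ level with a 95% interval of 0.333 to 0.823, and the adjusted p was 0.228 (edgeR, Benjamini-Hochberg). DESeq2 gave an adjusted p of 0.147. The size of the difference turned on single libraries. The log2 fold change was -1.23 without GCE/+ replicate 2 and -1.25 without GCE/GCE replicate 1, the library with high *Xist*. It was -0.55 without GCE/+ replicate 1 and -0.68 without GCE/GCE replicate 2. Over edgeR alternatives with all 4 samples the adjusted p (Benjamini-Hochberg) ran from 0.0817 (length offset with replicate block) to 0.354 (no filter).

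On the scale of log2(CPM + 1), the pattern most like that of *Igfbp6* over the 4 samples belonged to *Dcn*, which encodes the small proteoglycan decorin of connective tissue. It had 517 and 375 CPM in GCE/+ against 316 and 242 CPM in GCE/GCE cells. After centring log2(CPM + 1) of each gene on its own mean, the root mean square difference from *Igfbp6* was 0.027 for *Dcn*, 0.047 for the potassium channel gene *Kcnj8* and 0.064 for the glycosyltransferase gene *B3gnt7*, out of 13468 candidate genes. The log2 fold changes of these 3 genes were -0.68, -0.80 and -0.61, and none passed the threshold (lowest adjusted p 0.131, edgeR with Benjamini-Hochberg adjustment). The study, which used DESeq2, reported *Dcn* as lower in *Osr1* mutant cells. It found the same by RT-qPCR (quantitative PCR of transcripts) on other embryos. The closeness of the 3 genes to *Igfbp6* rests in part on the added 1, which compresses changes at the low level of *Igfbp6*. On log2 CPM without it, a scale added after seeing the data, the differences were 0.16, 0.12 and 0.17, and the genes ranked 23, 4 and 31 among the candidates. Over 4 samples such closeness is a description only.

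*Igfbp4*, whose product is cleaved by the protease Pappa to free the ligand, had 1003 and 925 CPM in GCE/+ against 838 and 950 CPM in GCE/GCE cells. *Igfbp3*, the main carrier of IGFs in adult serum, had 441 and 393 CPM in GCE/+ against 396 and 398 CPM in GCE/GCE cells. *Igfbp2*, expressed in many embryonic tissues, had 119 and 96.5 CPM in GCE/+ against 93.5 and 106 CPM in GCE/GCE cells. In all 3 genes GCE/+ replicate 1 held the highest value and the groups overlapped. Their log2 fold changes were -0.11 ± 0.11, -0.071 ± 0.094 and -0.11 ± 0.12 (SE), with 95% intervals that lay within 0.771 to 1.11 times the GCE/+ level.

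*Igfbp7*, a protein deposited around vessels, had 4.16 and 2.89 CPM in GCE/+ against 4.43 and 3.41 CPM in GCE/GCE cells. Replicate 1 was higher in both genotypes, the groups overlapped, and the log2 fold change of 0.15 ± 0.23 (SE) left a 95% interval of 0.771 to 1.59 times the GCE/+ level. Endothelial markers were at a low summed level of 139 and 116 CPM in GCE/+ against 118 and 102 CPM in GCE/GCE cells, and none of 10 passed the threshold. Of these 10, 8 had a negative log2 fold change, 5 were lower without overlap (19.1% of all tested genes), 6 had an unadjusted p under 0.05 (10.5% of all) and DESeq2 called 1, as lower (1.64% of all). Their part in the *Igfbp7* level was not tested.

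**Figure D2:**
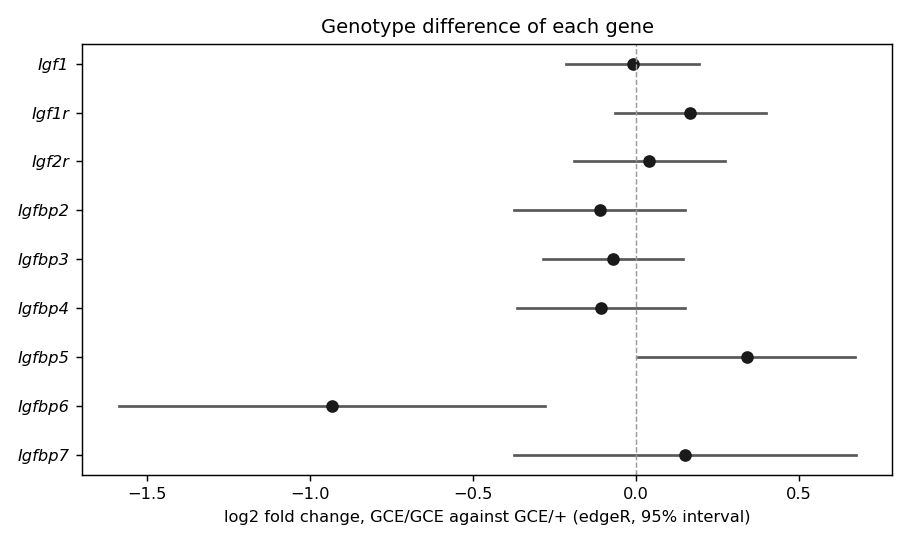
Log2 fold change of GCE/GCE against GCE/+ cells for each of the 9 genes (points, edgeR) with its 95% interval (lines). The intervals of *Igfbp5* and *Igfbp6* lie to opposite sides of 0 and the other 7 span it; these intervals are not adjusted for the number of genes tested.

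To compare levels between genes, CPM were divided by the length of all exons in kilobases. In GCE/+ cells the mean was 335 CPM per kilobase for *Igfbp5*, 218 for *Igfbp4* and 133 for *Igfbp3*, followed by *Igf2r* with 97.2, *Igfbp2* with 58.3 and *Igf1* with 49.1. *Igfbp5* ranked 76 and *Igfbp4* ranked 136 among 15471 tested genes with a length. *Igf1r* followed with 11.1 CPM per kilobase, and *Igfbp6* with 3.33 and *Igfbp7* with 2.91 came last. *Igfbp6* and *Igfbp7* overlapped over the 4 samples and changed places in GCE/GCE cells, and no other neighbours in the order overlapped. The closest of these were *Igfbp2*, with 50.6 CPM per kilobase in its lowest sample, and *Igf1*, with 49.98 in its highest. On this scale the transcripts for *Igf2r* exceeded those for *Igf1r* in every sample.

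**Figure D3:**
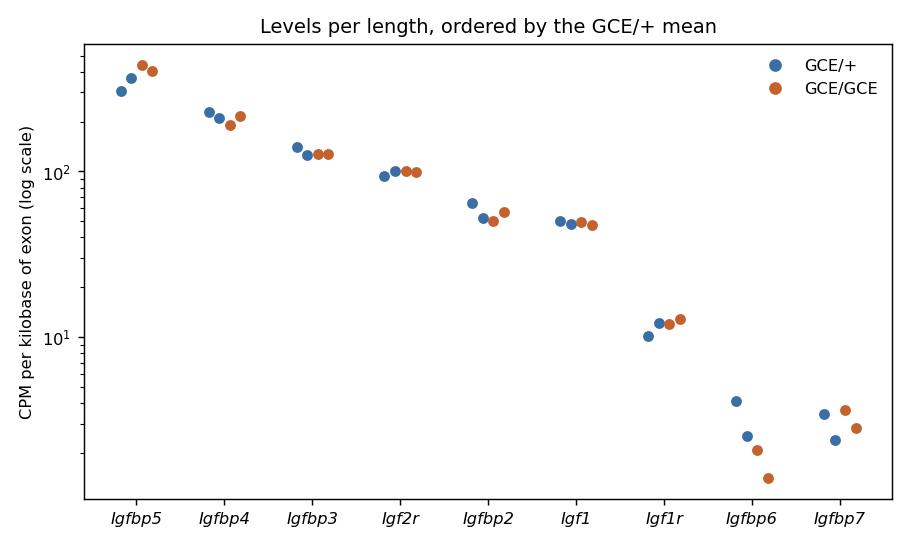
Levels in CPM per kilobase of exon (log axis) of the 9 genes, ordered by the GCE/+ mean, in GCE/+ (blue) and GCE/GCE (orange) samples. The order runs from *Igfbp5* with a GCE/+ mean of 335 to *Igfbp7* with 2.91, and only *Igfbp6* and *Igfbp7* overlap as neighbours.

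As a share of the summed CPM per kilobase of *Igfbp2* to *Igfbp7*, *Igfbp5* made up 40.9% and 48.2% in GCE/+ replicates 1 and 2 and 54.2% and 50.1% in GCE/GCE replicates 1 and 2. *Igfbp4* made up 30.5% and 27.7% in GCE/+ and 23.3% and 26.6% in GCE/GCE cells. *Igfbp3* accounted for 18.9% and 16.6% in GCE/+ and 15.6% and 15.7% in GCE/GCE cells, and *Igfbp2* for 6.22% to 8.65% in each sample. The share of *Igfbp5* was higher, and those of *Igfbp4*, *Igfbp3* and *Igfbp6* lower, in both GCE/GCE samples. The shares of *Igfbp2* and *Igfbp7* overlapped, and shares that sum to 100% do not move independently. *Igfbp6* and *Igfbp7* each stayed under 0.552%. All 6 genes together took 0.342% and 0.362% of all counts in GCE/+ samples, against 0.396% and 0.388% in GCE/GCE samples. The mean of *Igfbp5* was 2010 CPM in GCE/+ and 2542 CPM in GCE/GCE cells. Among the rest only *Igfbp7* had a positive log2 fold change, so the higher sum was not shared by the family.

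**Figure D4:**
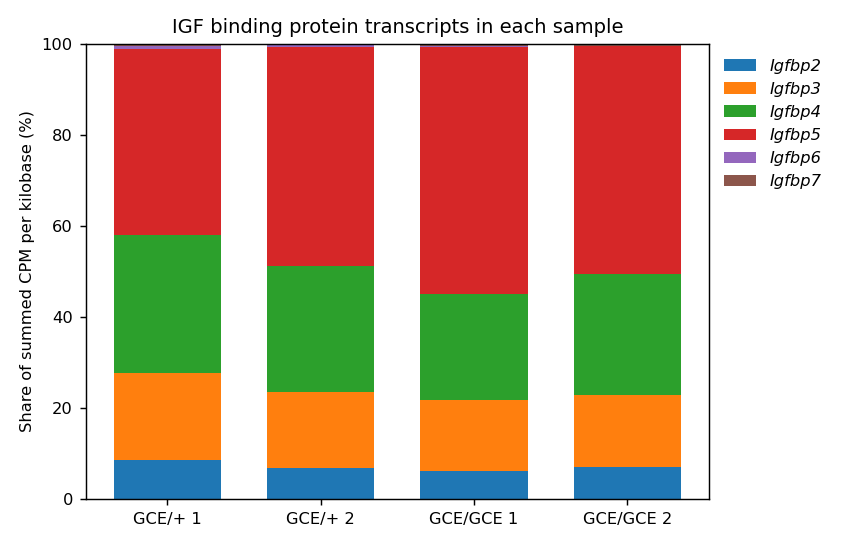
Share of each binding protein gene in the summed CPM per kilobase of *Igfbp2* to *Igfbp7* (percent, stacked bars), 1 bar per sample. *Igfbp5* takes between 40.9% and 54.2%, and *Igfbp6* and *Igfbp7* are thin bands at the top.

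The other genes of the pathway were examined in 6 lists with 61 genes. Of these 56 were tested, and none passed the threshold (edgeR, adjusted p under 0.1, lowest 0.115), while 5 had an unadjusted p under 0.05 (10.5% of all tested genes did) and DESeq2 called 1 (3.35% of all genes). Both GCE/GCE samples were above both GCE/+ samples for 14 of the 56 and below for 5, beside 19.2% and 19.1% of all tested genes. The median log2 fold change was 0.046, beside 0.0033 over all tested genes. Over the 15471 tested genes with a length, log2 fold change rose with exon length (Spearman correlation 0.235). The part of length in the pathway values was not tested.

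Of the ligands and other receptors, *Igf2*, the main fetal ligand, had 7265 and 7476 CPM in GCE/+ against 7293 and 7593 CPM in GCE/GCE cells and ranked 4 of all tested genes in GCE/+ cells. Its level overlapped between the genotypes, with a log2 fold change of 0.014 ± 0.19 (SE). The insulin receptor gene *Insr* had 69.1 and 86.1 CPM in GCE/+ against 86.5 and 85.2 CPM in GCE/GCE cells. *Insrr*, which encodes an insulin receptor-related kinase, had 5.35 and 7.69 CPM in GCE/+ against 10.3 and 7.94 CPM in GCE/GCE cells. *Ins1* was listed at 0 counts in all samples, and *Ins2*, *Igfals* and *Irs3* were too low to be tested, with at most 10 counts in a sample.

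Of the 7 binding protein proteases and their inhibitors, *Stc2*, whose product stanniocalcin-2 inhibits Pappa, had 1.59 and 1.97 CPM in GCE/+ against 3.08 and 2.48 CPM in GCE/GCE cells. *Htra1*, a secreted serine protease that can cleave binding proteins, had 50.7 and 31.5 CPM in GCE/+ against 58.4 and 48.0 CPM in GCE/GCE cells, with overlapping groups. Their adjusted p values were 0.299 and 0.618 (edgeR, Benjamini-Hochberg). The 3 genes for Igf2 mRNA binding proteins had log2 fold changes from -0.077 to 0.092, with *Igf2bp3* and *Igf2bp1* at these ends, and their groups overlapped.

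Among the 11 tested receptor adaptors, *Irs1*, a docking protein for the activated receptors, had 96.5 and 107 CPM in GCE/+ against 118 and 119 CPM in GCE/GCE cells. *Sos1*, the exchange factor that loads Ras, had 85.3 and 100.2 CPM in GCE/+ against 101 and 102 CPM in GCE/GCE cells. The adjusted p was 0.382 for *Irs1* and 0.772 for *Sos1* (edgeR, Benjamini-Hochberg).

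In the list of PI3K, Akt and mTOR genes, *Pik3cd*, the catalytic PI3K subunit best known from leukocytes, came closest to the threshold. It had 12.8 and 14.3 CPM in GCE/+ against 9.25 and 9.34 CPM in GCE/GCE cells, and the log2 fold change of *Pik3cd* was -0.54 ± 0.13 (SE). The adjusted p was 0.115 with edgeR and 0.0407 with DESeq2 (Benjamini-Hochberg). It moved in the same direction as the macrophage markers given above, and their part in its level was not tested. *Pik3r1*, the regulatory subunit, had 115 and 124 CPM in GCE/+ against 157 and 129 CPM in GCE/GCE cells. In the Ras and MAP kinase list, *Braf*, a kinase of this cascade, had 61.9 and 72.1 CPM in GCE/+ against 73.7 and 76.7 CPM in GCE/GCE cells, with a log2 fold change of 0.17 and an adjusted p of 0.661 (edgeR, Benjamini-Hochberg).

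**Figure D5:**
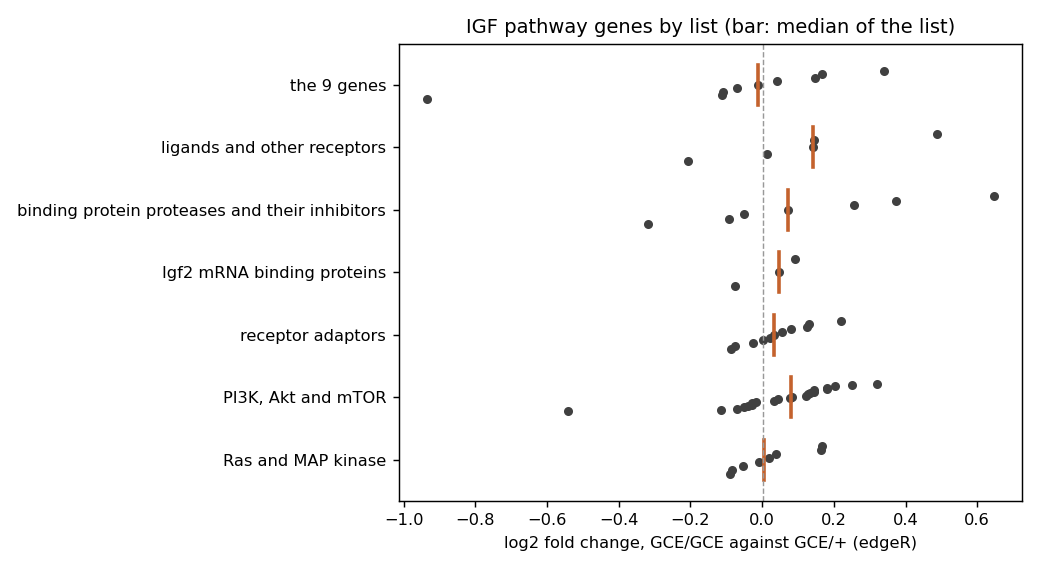
Log2 fold change (edgeR) of GCE/GCE against GCE/+ cells for the tested genes of the IGF pathway, by list. Points are genes, orange bars are list medians, which run from -0.012 for the 9 genes to 0.14 for ligands and other receptors, and the dashed line is the median of all tested genes.

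The remaining marker lists were read in the same way. The 10 limb mesenchyme markers had a summed level of 19763 to 21647 CPM in GCE/+ and 16878 to 19187 CPM in GCE/GCE cells, and none passed the threshold by edgeR (1 had an unadjusted p under 0.05, and DESeq2 called 1 higher and 1 lower). The largest parts of the sum were *Col3a1*, *Col1a2* and *Col1a1*. Their means were 9169, 5192 and 3397 CPM in GCE/+ against 7282, 4771 and 3045 CPM in GCE/GCE cells. Of the 10 markers, 4 had a positive and 6 a negative log2 fold change. The same test passed none of the tested myogenic (10), epidermis (8), Schwann and neural (6), erythroid (5) and dissociation response (10) markers. At an unadjusted p under 0.05 there were 3 myogenic and 3 epidermis markers and none in the other 3 lists, where 10.5% of all tested genes reached it. DESeq2 called 1 myogenic and 1 epidermis marker, both higher, beside 1.71% of all genes. Their part in the levels of the IGF genes was not tested.

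RefSeq promoters of the 9 genes (GRCm38.p6, 250 bases before to 50 bases after the start site, 10 windows) were searched for GCTACTG, letters known from binding sites of odd-skipped factors, on both strands. The letters stood in 1 of the 10 windows, at *Igf1*, beside 3.70% of 32851 promoters. The stretch around them, with the matched letters in capitals, is shown because it is the single match.

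Igf1, chr10:87860885-87860931, plus strand: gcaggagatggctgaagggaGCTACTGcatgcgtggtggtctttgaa

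The match began at position -206 from the start site of this RefSeq window. It lay inside the GENCODE span of *Igf1* (chr10:87858265-87937042), not upstream of it. The level of *Igf1* was alike in all 4 samples. No binding was measured here.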

How the data were processed

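RNA from 4 samples of FACS-sorted limb cells was sequenced by the authors as 50-bp paired-end reads, mapped to mm9 with TopHat2 under a UCSC gene model and counted with HTSeq (intersection-strict). They deposited unnormalized whole-number counts for each gene symbol. Rows naming no gene: 0. Of the symbols, 98.0% matched the GRCm38 GENCODE annotation directly or by a synonym. Lengths and coordinates are from that build and none were converted.

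Counts were filtered with filterByExpr, scaled by TMM and tested with edgeR 4.0.16 (quasi-likelihood, R 4.3.3), comparing genotypes two-sided and adjusting by Benjamini-Hochberg over 15645 genes, threshold 0.1. SE and intervals come from this fit, with 6.38 prior and 2 residual degrees of freedom. The scripts were tested on simulated data. DESeq2 1.42.0, which the authors used, was an alternative, and others varied scaling, filter, length, block and samples. Each P value rests on the spread within groups of 2 samples, estimated in part from all tested genes rather than from that gene alone. Figures used matplotlib 3.10.9. The 9 genes, the pathway and marker lists and the tests were chosen with earlier results of these data known. Named were the 9 genes, *Osr1*, *Igf2*, *Insr*, the first 2 genes of each pathway list by p (1 gene is not reported here), the 3 nearest to the member with the lowest p, and marker genes where their list is described. *Xist*, *Airn* and *Igfbp1*, and pathway genes too low to test or called under another setting, were named after their values were seen.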

Additional observations from a re-analysis of the deposited data

How the results depend on the processing

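Of the 9 genes, none passed an adjusted p of 0.1 in edgeR, 1 did (*Igfbp5*) in DESeq2 and 1 (*Igfbp6*, log2 -0.86) with a transcript length offset and replicate block. Leaving out a sample left a lone sample in its group, with no spread of its own. For single genes, only log2 fold changes are therefore given for those fits. The counts over all genes printed below for those fits carry the same limit, and no conclusion is drawn from them. *Igfbp5* stayed higher (0.21 to 0.47 on leaving out samples) and *Igfbp6* lower (-1.25 to -0.55) under every alternative run. Directions turned on leaving out samples for *Igf1* (-0.052 to 0.021), *Igf2r* (-0.0080 to 0.083), *Igfbp2* (-0.26 to 0.040), *Igfbp3* (-0.15 to 0.0081) and *Igfbp7* (-0.085 to 0.43), and *Igf2r* had -0.022 with the length offset, with or without the block. None of these passed the threshold in any fit to all 4 samples. On leaving out samples *Igf1r* ran from 0.041 to 0.30 and *Igfbp4* from -0.20 to -0.028. Of the pathway genes 1 passed in DESeq2, 1 with the length offset (*Pik3cd* in both) and 2 with the offset and block (*Pik3cd*, *Htra1*). Over all genes the count was 285 in edgeR, 503 in DESeq2, 127 without a filter, 472 with the offset and block, 130 at an adjusted p under 0.05, and 199 to 961 on leaving out samples (961 without GCE/+ replicate 2, 748 without GCE/GCE replicate 1). The replicate block alone gave 290 genes and 0 of the 9. Same-numbered samples did not deviate together over all genes taken at once (correlation 0.0049 over 13469 genes). This value cannot exclude a shared litter or day. As the labels name neither, the numbers are not read as pairs. In the order of levels, 4 of 9 genes kept their rank by CPM without length, 7 in GCE/GCE samples and 9 with the longest transcript. The legacy edgeR fit (279 genes, 0 of the 9) and the longest transcript were chosen after seeing the data. At 96 to 278 counts, *Igfbp6* and *Igfbp7* rest on the fewest reads.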
